A study of Mus musculus with 8 samples.

Results

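The 6 genes described here are Lyz1, Ang4, Pla2g2a, Mmp7, Nupr1 and Habp2. They were chosen by name as genes expressed in Paneth cells and read from probe sets that name the gene and no other. All 6 were measured, each by 1 such probe set, among 19938 genes measured in that way. Paneth cells sit at the base of the small intestinal crypts, between the stem cells, and release antimicrobial proteins from large granules into the crypt lumen. They arise from the secretory lineage, depend on Wnt signalling for their maturation, and supply niche signals to neighbouring stem cells. YAP and TAZ are coactivators of TEAD transcription factors held in check by the Hippo pathway, and the series set out to lower both in the mouse intestinal epithelium. Lyz1 encodes the lysozyme of Paneth granules, which cuts bacterial cell walls. Ang4 encodes a ribonuclease of the angiogenin family with antimicrobial activity, and Pla2g2a a secreted phospholipase that attacks bacterial membranes. Mmp7 encodes matrilysin, the metalloprotease that activates alpha-defensin precursors in mouse Paneth cells. Habp2 encodes a secreted serine protease that binds hyaluronan. Nupr1 encodes a small nuclear protein induced by cell stress, so it is the member least specific to Paneth cells by its known role.

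All 8 arrays came from isolated small intestinal epithelial cells of male ICR mice, an outbred stock, aged 8 weeks, with RNA taken 4 days after transfection in the living animal. The siYAP/TAZ group (n = 3) received siRNAs against both YAP and TAZ, and its control group siGFP (n = 3) an siRNA against GFP, which normal mice lack. The shYAP/TAZ array (n = 1) received plasmids expressing shRNAs against YAP and TAZ, and its control shLacZ (n = 1) a plasmid expressing an shRNA against bacterial LacZ. The labels describe each control array as the control for 1 knockdown array, by its number, which gives siRNA comparisons 1, 2 and 3 and 1 shRNA comparison, and no array enters more than 1 of these 4. They do not say what arrays of 1 number share. Deviations from the group means correlated across genes at 0.75 and 0.57 for the arrays numbered 1 and 3 and at -0.13 for those numbered 2, whose differences make up siRNA comparison 2. The array siGFP 2 also lay near 0 with siYAP/TAZ 1 and 3, at 0.09 and -0.01, so its low value is not particular to that pair. With 3 arrays per group these correlations cannot show whether arrays were paired. The labels do not say what share of the epithelial cells took up the nucleic acids, nor whether a group's arrays came from different animals. The p-values below therefore rest on array-to-array spread that could be technical. Unless a replicate block is named, p-values, SEs and intervals come from a fit that leaves the pairs by number out. Values are log2 intensities after quantile normalization of the 8 arrays, and a log2 difference of 1 is a 2-fold difference. The levels of different probe sets are not comparable, so single genes are set only against themselves, except where Habp2 is set beside array medians. The summed intensities of gene lists given below do add levels of different probe sets. They mostly follow the brightest genes of a list and are compared only between arrays. In bulk epithelium, fewer Paneth cells and less RNA per Paneth cell cannot be told apart.

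Median deposited intensity per array lay between 76.4 and 95.5, and Pearson's r between arrays lay between 0.765 and 0.963 across genes, which are not independent replicates. The targeted genes did not pass the test. Yap1 differed by -0.12 (SE 0.32) and Wwtr1, which encodes TAZ, by -0.28 (SE 0.36) on the log2 scale in the siRNA arm (limma adjusted p = 1.00 for each), and by -0.09 and 0.06 in the shRNA comparison. By comparison Yap1 stood at 0.25, -0.87 and 0.27 with siRNAs and Wwtr1 at -0.55, 0.58 and -0.86, and siYAP/TAZ 2 had the lowest Yap1 of the 8 arrays, 6.78. Groups are therefore named by their labels. In the siRNA arm limma called 0 of 19938 genes at an adjusted p of 0.05, or 0% of genes, and 237 had an unadjusted p below 0.05.

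None of the 6 Paneth cell genes passed the test in the siRNA arm, and 0 of 6 had an unadjusted p below 0.05. Of all genes, 0.762% were lower and 0.426% higher at that level. With a replicate block, which pairs the arrays by number, Habp2 and Lyz1 had an unadjusted p of 0.0226 and 0.0419 (limma). None of the 6 passed after adjustment there, and the share of all genes below 0.05 in that fit was not counted. The siYAP/TAZ and siGFP arrays overlapped for each of the 6, where 2.99% of all genes were lower and 1.6% higher without overlap. In the mean, 5 of 6 were lower and 1 higher in siYAP/TAZ than in siGFP, where 53.6% of all genes were lower and 46.4% higher. The median log2 difference over the 6 was -0.74, against -0.02 over all genes. The widest differences in the mean were those of Pla2g2a at -1.22, Ang4 at -0.89, Lyz1 at -0.76 and Habp2 at -0.71, while Mmp7 stood at -0.02 and Nupr1 at 0.30. These values moved when limma weighted the arrays by their estimated quality, to -1.82 for Pla2g2a, -2.07 for Ang4, -1.68 for Lyz1, -1.36 for Habp2, -0.98 for Mmp7 and 0.07 for Nupr1, with adjusted p from 0.127 to 0.898. The arrays of a group were far apart for these genes. The residual SD was 2.10 for Pla2g2a, 1.54 for Ang4, 1.17 for Mmp7, 0.90 for Lyz1, 0.81 for Habp2 and 0.58 for Nupr1 on the log2 scale, where the median gene had 0.42. In the order of all genes by residual SD, Pla2g2a stood at percentile 99.9 and Ang4 at percentile 99.2.

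**Figure D1:**
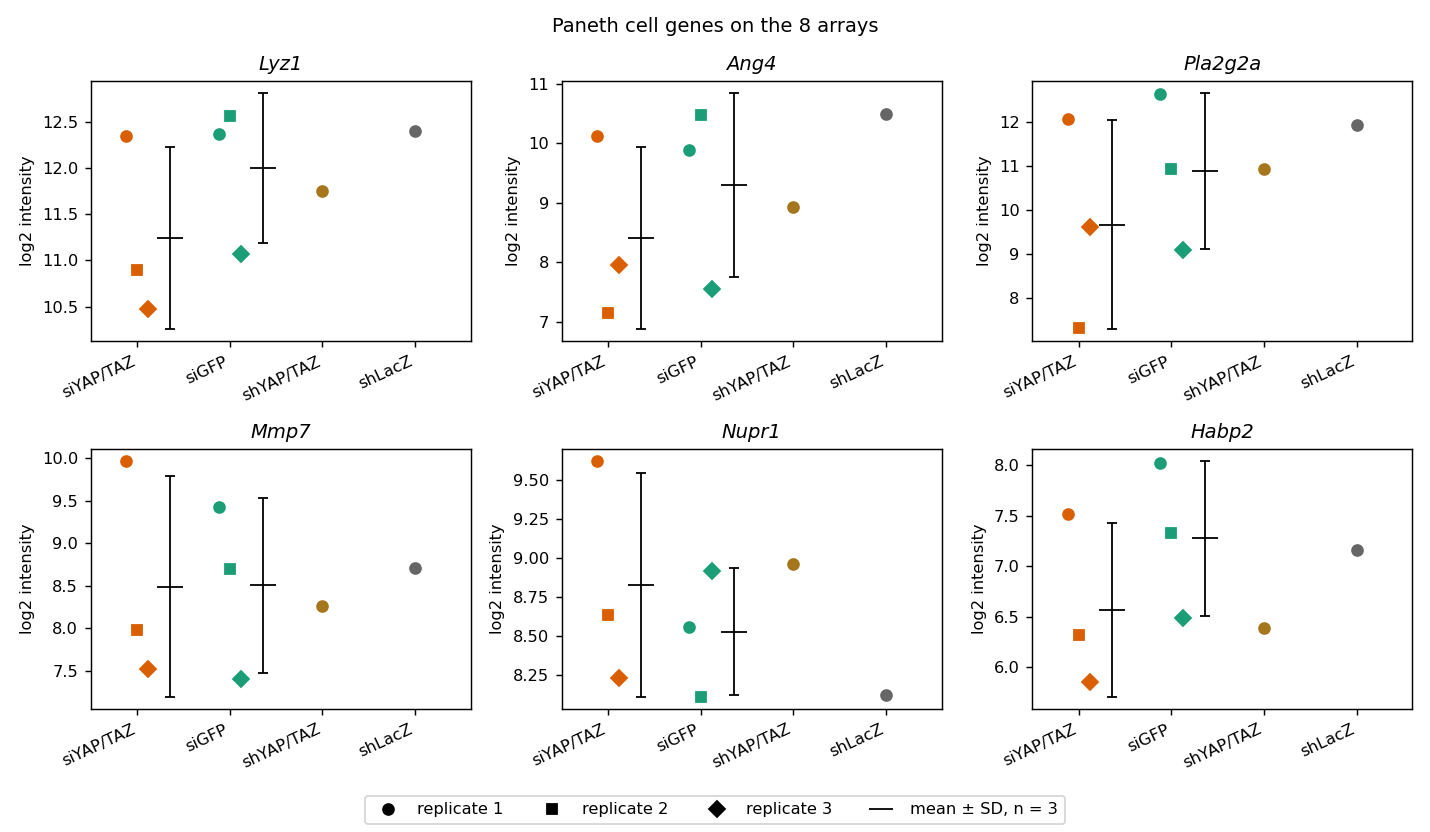
Log2 intensity of the 6 Paneth cell genes on each array (points, shaped by replicate number), with mean ± SD beside each group of 3 and groups along the horizontal axis; the vertical axes differ between panels and do not start at 0. For Lyz1, Ang4, Pla2g2a, Mmp7 and Habp2 the array siYAP/TAZ 1 lies at the top of its group, and siGFP 3 is the lowest siGFP array.

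Lyz1, the lysozyme gene, had log2 intensities of 12.35, 10.89 and 10.47 in siYAP/TAZ 1, 2 and 3, against 12.37, 12.56 and 11.06 in siGFP 1, 2 and 3. The array siYAP/TAZ 1 was as high as siGFP 1, and the lowest control, siGFP 3, lay close to siYAP/TAZ 2. Means were 11.24 ± 0.99 in siYAP/TAZ and 12.00 ± 0.81 in siGFP (SD, n = 3 each), and limma put siYAP/TAZ minus siGFP at -0.76 on the log2 scale (SE 0.56; interval at 95% confidence -2.04 to 0.52, limma adjusted p = 1.00, exact two-sided permutation p = 0.2). The smallest p that 3 arrays against 3 can give in that exact test is 0.1. In the shRNA arm Lyz1 had 11.75 in shYAP/TAZ and 12.39 in shLacZ, a log2 difference of -0.64. Over the siRNA comparisons the Lyz1 differences were -0.02, -1.66 and -0.59. The first of these changed sign with the scaling, to 0.06 with arrays centred on the 75th percentile and 0.02 without normalization.

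Lyz2, the macrophage lysozyme gene, is the close copy and neighbour of Lyz1 on mouse chromosome 10, and probes for one can take signal from the other. The 2 promoters are printed because they show how close the copies are. They run from 250 bases upstream to 20 bases downstream of the RefSeq start (GRCm38.p6, minus strand, read 5′ to 3′ along the gene). Lyz1 lies at chr10:117292849-117293118 and Lyz2 at chr10:117282253-117282522, and capitals mark the 70 bases that both share at the downstream end.
Lyz1: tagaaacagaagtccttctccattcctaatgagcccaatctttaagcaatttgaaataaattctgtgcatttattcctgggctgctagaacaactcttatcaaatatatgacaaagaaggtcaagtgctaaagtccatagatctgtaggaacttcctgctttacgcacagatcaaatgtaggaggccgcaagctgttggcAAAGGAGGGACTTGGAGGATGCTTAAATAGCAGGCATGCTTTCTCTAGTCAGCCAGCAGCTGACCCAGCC
Lyz2: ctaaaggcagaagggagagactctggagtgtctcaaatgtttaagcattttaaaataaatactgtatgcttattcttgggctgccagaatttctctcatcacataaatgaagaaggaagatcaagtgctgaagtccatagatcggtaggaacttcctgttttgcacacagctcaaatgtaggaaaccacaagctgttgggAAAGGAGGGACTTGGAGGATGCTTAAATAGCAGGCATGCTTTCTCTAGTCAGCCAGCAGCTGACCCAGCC
Aligned end to end, these windows were identical at 220 of 272 positions, or 80.9%. Lyz2 had 10.41, 9.86 and 9.04 in siYAP/TAZ 1, 2 and 3, against 10.58, 10.98 and 9.76 in siGFP 1, 2 and 3. In the shRNA arm it had 10.66 in shYAP/TAZ and 10.55 in shLacZ. Lyz2 thus lay with Lyz1 in the siRNA comparisons, at -0.17, -1.12 and -0.72, and apart from it in the shRNA comparison, at 0.11. How much Lyz2 transcript contributes to the Lyz1 probe set, or the reverse, was not tested.

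Ang4, the antimicrobial ribonuclease gene, had 10.12, 7.15 and 7.95 in siYAP/TAZ 1, 2 and 3, against 9.88, 10.47 and 7.54 in siGFP 1, 2 and 3. High and low arrays occurred in both groups, with siYAP/TAZ 2, siGFP 3 and siYAP/TAZ 3 the lowest of the 8 arrays. Means were 8.41 ± 1.53 in siYAP/TAZ and 9.30 ± 1.55 in siGFP (SD, n = 3 each), and siYAP/TAZ minus siGFP was -0.89 on the log2 scale (SE 0.89; interval -2.92 to 1.13, limma adjusted p = 1.00, exact two-sided permutation p = 0.6). The siRNA comparisons gave 0.23, -3.32 and 0.41. Comparison 2 alone was negative, by 10.0-fold, between arrays that did not deviate together, and without both arrays numbered 2 the mean difference was 0.32. In the shRNA arm Ang4 had 8.93 in shYAP/TAZ and 10.50 in shLacZ, a log2 difference of -1.56 or 2.95-fold lower, the widest of the 6 genes there.

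Pla2g2a, the phospholipase gene, had 12.07, 7.31 and 9.61 in siYAP/TAZ 1, 2 and 3, against 12.64, 10.93 and 9.10 in siGFP 1, 2 and 3. It spanned 5.33 on the log2 scale over the 8 arrays, or 40.3-fold, from 7.31 in siYAP/TAZ 2 up to 12.64 in siGFP 1. RefSeq lists the gene as a transcribed pseudogene in the C57BL/6J reference, and the arrays here are from another stock. Means were 9.66 ± 2.38 in siYAP/TAZ and 10.89 ± 1.77 in siGFP (SD, n = 3 each), and siYAP/TAZ minus siGFP was -1.22 on the log2 scale (SE 1.19; interval -3.93 to 1.48, limma adjusted p = 1.00, exact two-sided permutation p = 0.5). That value hung on several single arrays. It was -0.05 without siYAP/TAZ 2 and -0.35 without siGFP 1, but -2.43 without siYAP/TAZ 1 and -2.12 without siGFP 3. Without siYAP/TAZ 3 or siGFP 2 it was -1.20. The siRNA comparisons gave -0.57, -3.62 and 0.52, the second between the same arrays numbered 2. In the shRNA arm Pla2g2a had 10.93 in shYAP/TAZ and 11.93 in shLacZ, 2.01-fold lower.

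Mmp7, the alpha-defensin processing enzyme, had 9.97, 7.98 and 7.52 in siYAP/TAZ 1, 2 and 3, against 9.43, 8.69 and 7.40 in siGFP 1, 2 and 3. The groups overlapped over most of their range. Means were 8.49 ± 1.30 in siYAP/TAZ and 8.51 ± 1.03 in siGFP (SD, n = 3 each), and siYAP/TAZ minus siGFP was -0.02 on the log2 scale (SE 0.70; interval -1.61 to 1.57, limma adjusted p = 1.00, exact two-sided permutation p = 1.00). The interval still holds 2-fold differences either way, and with array weights the difference was -0.98. The siRNA comparisons gave 0.54, -0.71 and 0.12, and the shRNA arm 8.26 in shYAP/TAZ and 8.71 in shLacZ, a log2 difference of -0.45.

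Habp2, the hyaluronan-binding protease gene, was lower in the knockdown-labelled array in all 4 comparisons, at -0.50, -1.01, -0.64 and, for the shRNAs, -0.78 on the log2 scale. Its sign was the same under each of the other scalings tried. The signal was dim on some arrays. Deposited intensities were 75.56, 56.58 and 93.45 in siYAP/TAZ 2, siYAP/TAZ 3 and shYAP/TAZ, below the array medians of 81.00, 83.15 and 95.52. On the other arrays Habp2 lay above the median. Of the 6 members, Habp2 and Lyz1 were lower in all 4, Lyz1 with a first difference near 0, and so were 8.95% of all genes. Habp2 had 7.52, 6.32 and 5.85 in siYAP/TAZ 1, 2 and 3, against 8.02, 7.33 and 6.49 in siGFP 1, 2 and 3. Within each group the arrays differed by more than the comparisons did, and the groups overlapped. Means were 6.56 ± 0.86 in siYAP/TAZ and 7.28 ± 0.77 in siGFP (SD, n = 3 each), and siYAP/TAZ minus siGFP was -0.71 on the log2 scale (SE 0.52; interval -1.90 to 0.47, limma adjusted p = 1.00, exact two-sided permutation p = 0.4). In the shRNA arm Habp2 had 6.38 in shYAP/TAZ and 7.16 in shLacZ, 1.71-fold lower.

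Nupr1, the stress protein gene, was higher in the knockdown-labelled array in 3 of the 4 comparisons. In siRNA comparison 1 Ang4 and Mmp7 were higher as well. It had 9.62, 8.63 and 8.23 in siYAP/TAZ 1, 2 and 3, against 8.56, 8.11 and 8.92 in siGFP 1, 2 and 3. The array siYAP/TAZ 1 was the highest of the 8 arrays and siGFP 2 the lowest. Means were 8.83 ± 0.72 in siYAP/TAZ and 8.53 ± 0.41 in siGFP (SD, n = 3 each), and siYAP/TAZ minus siGFP was 0.30 on the log2 scale (SE 0.42; interval -0.65 to 1.25, limma adjusted p = 1.00, exact two-sided permutation p = 0.6). The array siYAP/TAZ 1 decided the sign, since without it the difference was -0.10. The siRNA comparisons gave 1.06, 0.53 and -0.69. In the shRNA arm Nupr1 had 8.96 in shYAP/TAZ and 8.12 in shLacZ, 1.79-fold higher.

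**Figure D2:**
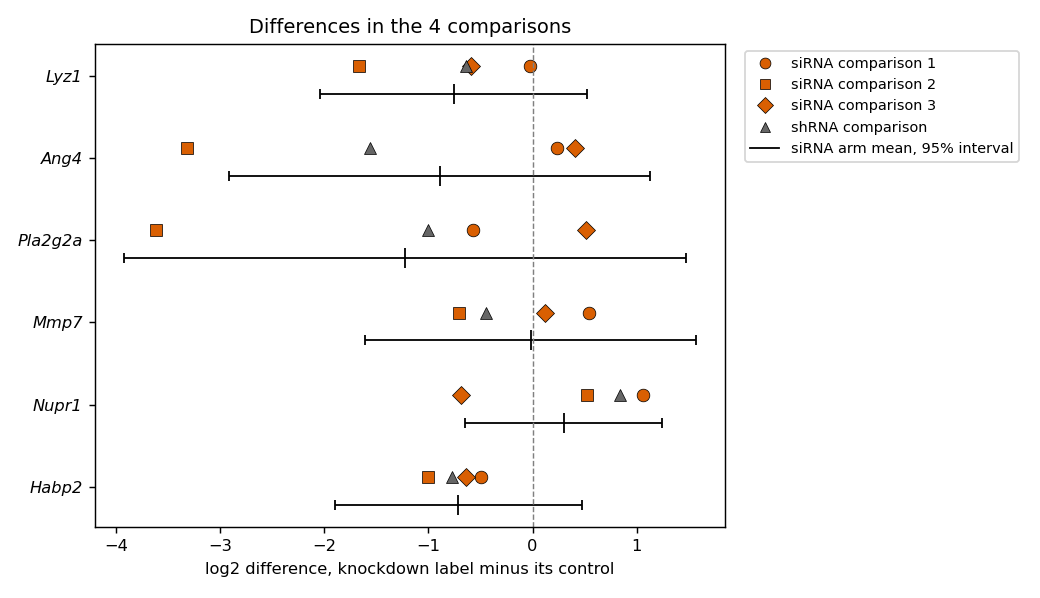
Log2 differences of the 6 Paneth cell genes (rows), knockdown label minus its control, in the 3 siRNA comparisons and the shRNA comparison (points), with the siRNA arm mean and its 95% confidence interval from limma (bars). Habp2 lies left of 0 in all 4 comparisons, siRNA comparison 2 reaches -3.32 for Ang4 and -3.62 for Pla2g2a, and every interval includes 0.

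Set out by comparison, more of the 6 genes were lower in siRNA comparison 2 and the shRNA comparison than in siRNA comparisons 1 and 3. In siRNA comparison 2, 5 of 6 were lower, with a median of -1.34 (0.02 over all genes), and 4 were at least 2-fold lower and 0 at least 2-fold higher, as were 8.36% and 4.79% of all genes. The 4 were Lyz1, Ang4, Pla2g2a and Habp2, the last of them just inside at -1.01. In the shRNA comparison, 5 of 6 were lower, where 52.2% of all genes were, with a median of -0.71 (-0.02 over all genes). Ang4 and Pla2g2a were at least 2-fold lower there and 0 members at least 2-fold higher, as were 2.76% and 1.84% of all genes. In siRNA comparison 1, 3 were lower and 3 higher, with a median of 0.11, and 0 were at least 2-fold lower and 1, Nupr1, at least 2-fold higher, as were 2.34% and 2.02% of all genes. In siRNA comparison 3, 3 were lower and 3 higher, with a median of -0.24, and 0 passed 2-fold in either direction, as did 1.66% of all genes downward and 2.16% upward. With 1 array on each side, these counts describe single arrays and have no test.

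Crypt gene lists were read on the same arrays. On each array the median over a list was taken after each gene's own mean over the 8 arrays was subtracted. For the 6 Paneth cell genes it was 1.01, -0.70 and -1.01 in siYAP/TAZ 1, 2 and 3 and 0.87, 0.40 and -0.88 in siGFP 1, 2 and 3. For the 19 measured of 20 mitotic genes it was 1.28, -1.13 and -1.34 in siYAP/TAZ and 1.03, 0.46 and -1.31 in siGFP in the same order. The arrays low in one list were thus low in the other, siYAP/TAZ 2, siYAP/TAZ 3 and siGFP 3, across both groups. In siRNA comparison 2, where the Paneth cell genes were lowest, mitotic genes had a median of -1.69, with 19 of 19 lower, and crypt base stem cell markers one of -1.77, with 15 of 16 lower. In siRNA comparison 1 the crypt lists went opposite ways, with mitotic genes at a median of 0.33 (18 of 19 higher) and stem cell markers at -0.58 (10 of 16 lower), beside 0.11 for the Paneth cell genes. In siRNA comparison 3 the medians were -0.02 and -0.18, with 10 of 19 and 12 of 16 lower, beside -0.24. In the shRNA comparison the mitotic genes had a median of 0.08, with 6 of 19 lower, and the stem cell markers one of -0.44, with 14 of 16 lower, beside -0.71 for the Paneth cell genes. Summed intensities of the mitotic list ranged from 979 to 6929 in siYAP/TAZ and from 925 to 5729 in siGFP, and were 4185 in shYAP/TAZ and 3907 in shLacZ. Those of the stem cell list ranged from 1255 to 4278 in siYAP/TAZ and from 1592 to 7893 in siGFP, and were 2579 in shYAP/TAZ and 4376 in shLacZ. The part of crypt content in the differences of the Paneth cell genes was not tested.

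**Figure D3:**
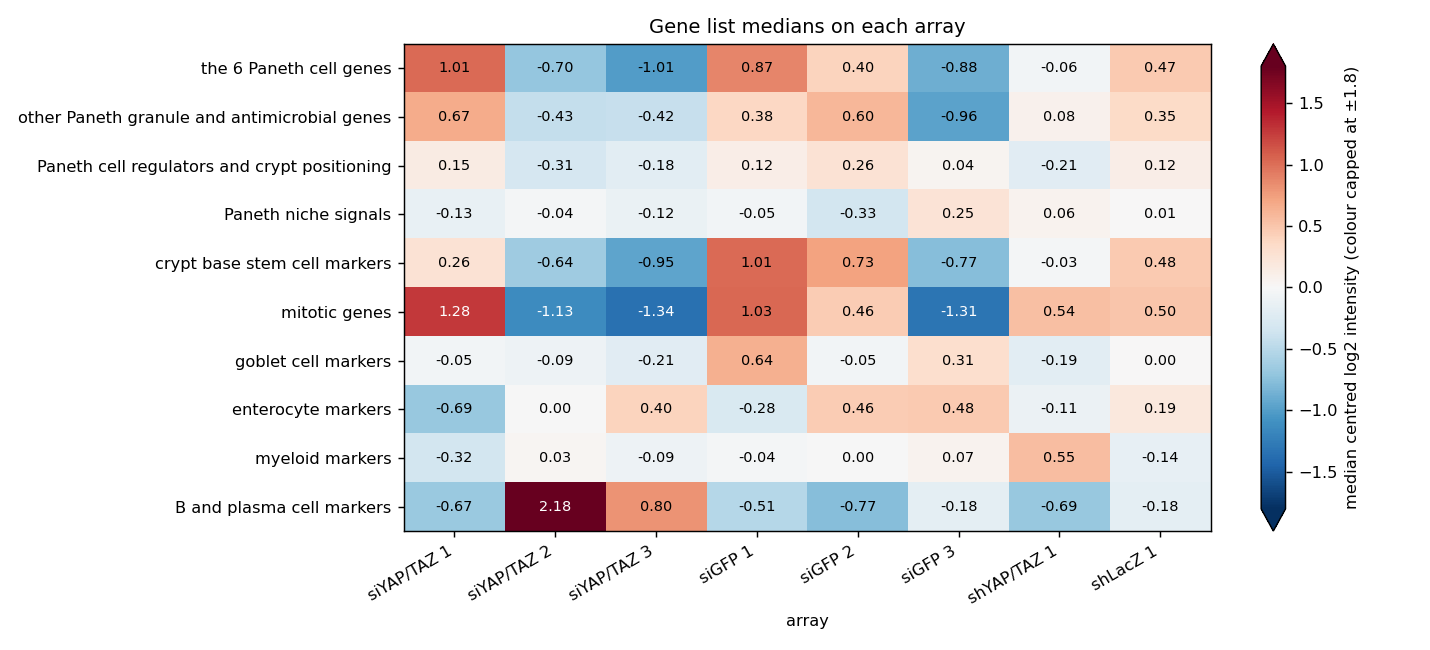
Median log2 intensity of each gene list (rows) on each array (columns) after subtraction of each gene's mean over the 8 arrays; red is above and blue below that mean. The 6 Paneth cell genes and the mitotic genes are both low in siYAP/TAZ 2, siYAP/TAZ 3 and siGFP 3, at -0.70, -1.01 and -0.88 for the Paneth cell genes.

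Other genes of the Paneth cell gave no calls either. Of 28 further granule and antimicrobial genes, 11 had a probe set of their own, and most of those without one are alpha-defensin genes. Of these 11, 0 passed in either direction, 7 had lower and 4 higher means, and the median was -0.29. Defa24, an alpha-defensin, differed by -0.66 (SE 0.72) in the siRNA arm and by -0.15 in the shRNA comparison, and Spink4, a secreted peptide that goblet cells also make, by -0.43 (SE 0.79) and -0.20. The bactericidal lectins Reg3b and Reg3g, which enterocytes also make, were higher in all 4 comparisons, as were 6.02% of all genes. Reg3b differed by 0.65 (SE 0.43) in the siRNA arm and 0.97 in the shRNA comparison, and Reg3g by 0.56 (SE 0.33) and 0.90. By comparison the 11 genes had medians of 0.15, -0.92 and 0.35 with siRNAs and -0.20 with shRNA plasmids.

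Regulators of Paneth cell fate and position gave 0 calls among 13 measured of 14, where 9 had lower and 4 higher means around a median of -0.37. Erbb3, a receptor tyrosine kinase, differed by -0.60 (SE 0.41) in the siRNA arm and 0.36 in the shRNA comparison, and Fzd5, the Wnt receptor needed for Paneth cell maturation, by -0.53 (SE 0.33) and -0.12. Xbp1, the secretory stress transcription factor that Paneth cells need, was the exception among the named regulators, at 0.81 (SE 0.56) and 0.84. Efnb1, an ephrin ligand, differed by -0.37 (SE 0.34) and -0.13. Niche signals that Paneth cells supply gave 0 calls among 6, where 3 had lower and 3 higher means around a median of -0.03. The Notch ligands Dll1 and Dll4 differed by -0.14 (SE 0.61) and 0.29 (SE 0.36), Wnt11 by 0.13 (SE 0.28) and the growth factor gene Tgfa by 0.02 (SE 0.30).

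Neighbouring cell types were read from their own markers. In the siRNA arm limma called none of these markers, as it called none of the 19938 genes. Crypt base stem cell markers were lower in the mean for 15 of 16 measured of 18, with a median of -0.83. Olfm4, a secreted protein of stem cells, differed by -1.76 (SE 0.93), Slc12a2, an ion cotransporter, by -1.30 (SE 0.96), Rnf43, a Wnt feedback inhibitor, by -0.88 (SE 0.54) and Cdca7 by -0.66 (SE 0.86). Mitotic genes were lower in the mean for 17 of 19, with a median of -0.41, and Ccna2, Ccnb2, Mki67 and Top2a differed by -0.56, -0.76, -0.65 and -0.72. Goblet cell markers were lower for 11 of 12 measured of 14, with a median of -0.45, and Muc2, Agr2, Zg16 and Tff3 differed by -0.50, -0.35, -0.23 and -0.10. Enterocyte markers were lower for 11 of 16, with a median of -0.32, and Anpep, Fabp2, Apoa1 and Apoa4 differed by -0.39, -0.34, -0.24 and 0.03. Their summed intensity ranged from 38650 to 83130 in siYAP/TAZ and from 48166 to 86219 in siGFP, and was 61517 in shYAP/TAZ and 70142 in shLacZ.

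Markers of immune cells that an epithelial isolate can hold had another order over the arrays. B and plasma cell markers were higher in the mean for 10 of 11 measured of 12, with a median of 1.50, and their summed intensity ranged from 381 to 2713 in siYAP/TAZ and from 409 to 541 in siGFP, and was 334 in shYAP/TAZ and 558 in shLacZ. Cd22, Cd79b, Pax5 and Jchain differed by 1.94, 1.66, 1.50 and 0.12. The highest array of the list, siYAP/TAZ 2, was also the lowest for Ang4 and Pla2g2a. The other members were lowest elsewhere, Lyz1 and Habp2 in siYAP/TAZ 3, Mmp7 in siGFP 3 and Nupr1 in siGFP 2. Myeloid markers, a list that holds Lyz2, were lower for 9 of 14 in the siRNA arm, with a median of -0.11, and C1qa, Lst1 and Cd14 differed by -0.21, 0.11 and -0.17. In the shRNA comparison 14 of 14 myeloid markers were higher, with a median of 0.69, and their summed intensity was 3455 in shYAP/TAZ and 2508 in shLacZ. The part of immune cells in the values of the Paneth cell genes was not tested.

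Nupr1 was set against every other gene by likeness over the arrays. Likeness between 2 genes was measured as the root mean square difference of their log2 values over the 8 arrays, after each gene's own mean was subtracted, so a smaller value is a closer match. By this measure Atf4, the transcription factor of the integrated stress response, was the gene nearest to Nupr1 of all named genes, at 0.18, followed by Rab31, a vesicle GTPase, at 0.20 and Cars, a cysteine tRNA synthetase, at 0.21. The nearest gene has the smallest of many distances, so a small value alone shows no link. Nearest genes lay 0.14 from Lyz1, 0.13 from Mmp7 and 0.67 from Pla2g2a, whose own SDs were 0.76, 0.84 and 1.67. The other 5 members lay 0.79 to 1.70 from Nupr1, whose own SD over the arrays was 0.48. The 14 amino acid and endoplasmic reticulum stress genes of the stress list, which holds Atf4 and not Cars, lay 0.18 to 1.16 from it, with a median of 0.57. Of these, 8 were nearer than the nearest member, Habp2, and 6 were farther, among them Asns at 1.14, Chac1 at 1.14 and Slc7a11 at 0.95. The measure also depends on how widely a gene varies. A gene without any change over the arrays would lie 0.48 from Nupr1, nearer than Habp2. Hspa5 at 0.50, Herpud1 at 0.55 and Atf5 at 0.58, among the 8, were no nearer than that. The share of all genes nearer than Habp2 was not counted, so the 8 do not show a shared pattern. Atf4 had 10.16, 9.17 and 9.16 in siYAP/TAZ 1, 2 and 3, against 8.95, 8.79 and 9.30 in siGFP 1, 2 and 3, and 9.69 in shYAP/TAZ against 8.86 in shLacZ. Like Nupr1, it was highest in siYAP/TAZ 1 and second highest in shYAP/TAZ.

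The 14 stress genes gave 0 calls in the siRNA arm, where 13 had higher means, around a median of 0.57. Their siRNA comparisons had medians of 1.34, 0.11 and -0.15, with 14 of 14 higher in comparison 1, and the shRNA comparison had a median of 0.44, with 9 of 14 higher. Asns, which makes asparagine, differed by 2.17, -0.98 and 0.66 with siRNAs and by 1.99 with shRNA plasmids. The chaperone gene Hspa5 differed by 0.13, 0.88 and -0.09 and by -0.39, and Herpud1, of protein degradation at the endoplasmic reticulum, by 1.45, -0.86 and -0.58 and by -0.15. Chac1 and Slc7a11, of glutathione breakdown and cystine uptake, were named after their values were seen. Chac1 had 9.18 in siYAP/TAZ 1 and 8.73 in shYAP/TAZ, against 5.35 to 5.85 on the other 6 arrays. Slc7a11 had 8.89 in siYAP/TAZ 1 and 6.31 in shYAP/TAZ, against 4.72 to 5.34 on the other 6.

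**Figure D4:**
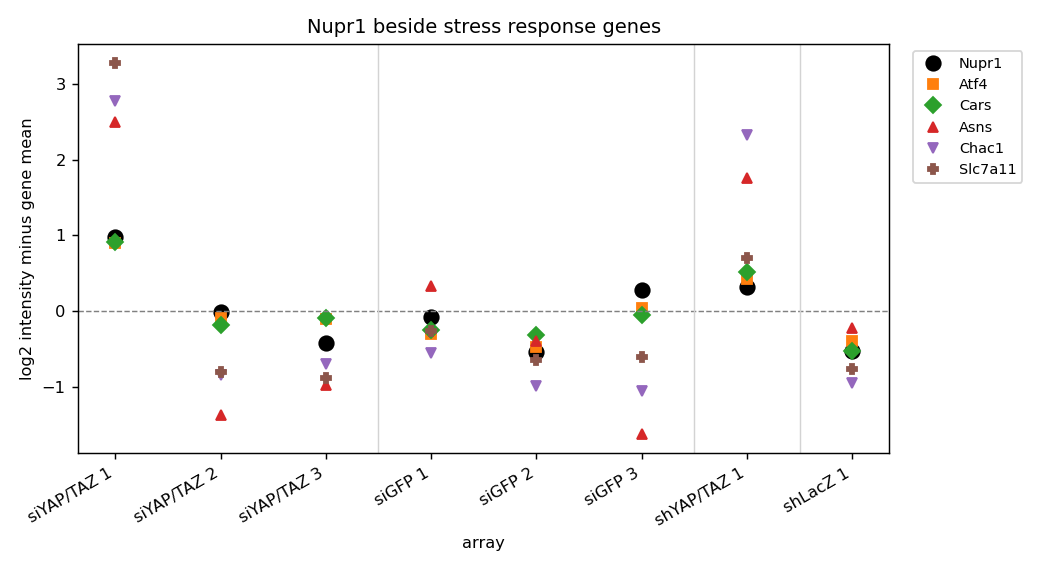
Log2 intensity of Nupr1 (black circles) and of Atf4, Cars, Asns, Chac1 and Slc7a11, 5 genes picked for the plot after their values were seen, on each array (horizontal axis), after subtraction of each gene's mean over the 8 arrays, with vertical lines between groups. These 6 are highest in siYAP/TAZ 1 and second highest in shYAP/TAZ, an order that 7 of the 14 listed stress genes had and 7 did not.

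The Nupr1 promoter is printed because it holds the composite C/EBP-ATF element, the sequence that ATF4 is known to bind. The letters searched were TGATGCAA on both strands. They were chosen after the window had been read, so their presence there is no test. Of 32851 RefSeq promoter windows of the same length, 0.852% hold them. The window covers chr7:126625451-126625720 (GRCm38.p6, minus strand, read along the gene), again from 250 bases upstream to 20 bases downstream of the start, and capitals mark the element, which begins 110 bases before the start on the opposite strand.
Nupr1: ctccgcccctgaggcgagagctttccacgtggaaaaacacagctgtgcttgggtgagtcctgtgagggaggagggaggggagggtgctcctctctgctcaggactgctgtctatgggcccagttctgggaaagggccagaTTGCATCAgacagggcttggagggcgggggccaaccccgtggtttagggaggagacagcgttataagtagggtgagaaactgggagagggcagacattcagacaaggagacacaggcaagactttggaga
Of the 14 stress genes, all with a window, 5 hold the same letters in any of their windows, Atf3, Chac1, Slc7a11, Vldlr and Herpud1. The share given above counts windows and not genes, so these 5 have no like background. A match is a description of the letters and not a bound site.

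The promoters of Habp2 and Mmp7 are printed because each holds a core motif of a factor tied to the study or to Paneth cells. The cores searched were GGAATG, bound by TEAD factors, and ATCAAAG and TTCAAAG, bound by the TCF factors of Wnt signalling, on both strands. They are held by 13.5%, 3.5% and 4.71% of all windows of this length. Both windows lie on the plus strand, Habp2 at chr19:56287662-56287931 and Mmp7 at chr9:7691840-7692109 (GRCm38.p6). Capitals mark a TEAD core on the opposite strand in Habp2, which begins 17 bases before the start, and the first TCF core in Mmp7, from base 5 after the start.
Habp2: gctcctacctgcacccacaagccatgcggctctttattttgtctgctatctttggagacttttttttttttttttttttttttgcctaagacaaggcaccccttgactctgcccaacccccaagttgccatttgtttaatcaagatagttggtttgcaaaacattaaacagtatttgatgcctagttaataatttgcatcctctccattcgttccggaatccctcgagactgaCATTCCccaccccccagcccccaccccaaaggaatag
Mmp7: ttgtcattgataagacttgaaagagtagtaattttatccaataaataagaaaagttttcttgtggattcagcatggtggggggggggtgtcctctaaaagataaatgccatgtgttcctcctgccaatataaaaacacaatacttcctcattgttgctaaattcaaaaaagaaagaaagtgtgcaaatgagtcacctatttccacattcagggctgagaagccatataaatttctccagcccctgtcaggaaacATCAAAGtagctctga
The Lyz1 window also holds a TEAD core on the opposite strand, 230 bases before its start. The windows of Ang4 and Lyz2 held none of these cores.

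The remaining members had close matches of different kinds. Ang2, another angiogenin family gene, was nearest to Ang4 at 0.19, against an SD of 1.28 for Ang4 itself, and was also nearest to Pla2g2a, at 0.67. Ang2 and Ang4 have similar sequences and can share array signal, so the closeness of this pair is uncertain. Clps, the colipase gene, followed for Ang4 at 0.37 and Shmt1, a folate cycle enzyme, at 0.39, and for Pla2g2a Ccnb2 followed at 0.71 and Zdhhc2, a palmitoyltransferase, at 0.71. Nearest to Lyz1 were Cbx5, a heterochromatin protein, at 0.14, Cebpzos at 0.16 and Arhgap8 at 0.16. Nearest to Mmp7 were Wdr75, of ribosome assembly, at 0.13, Acot7 at 0.14 and Fam72a at 0.14, and nearest to Habp2 were Pdlim1 at 0.16, Maged1 at 0.16 and the transcription factor E2f5 at 0.17. Among the members themselves, Lyz1 and Habp2 were the closest pair at 0.36, followed by Mmp7 and Habp2 at 0.41 and Lyz1 and Mmp7 at 0.48. The pair farthest apart was Pla2g2a and Nupr1 at 1.70. These matches rest on 8 arrays, which also differ in crypt gene levels, and have no test.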

How the data were processed

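Per the labels, total RNA of isolated intestinal epithelial cells was labelled with biotin by the Affymetrix WT Terminal Labeling kit and hybridized to 1 array per sample. The deposited values are linear probe set intensities. How the authors summarised and scaled them is not stated in the sources read. On each array the lowest intensity lay near 16. Array medians on the log2 scale lay 0.32 apart, above a limit of 0.2, so log2 values were quantile normalized.

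Of 28853 probe sets, 21789 named 1 gene and 1621 named several and were not used. A RefSeq table of GRCm38.p6, matched by Entrez identifier, gave current symbols for 21698. Each of 19938 genes was represented by its brightest probe set. Groups follow the sample titles. siYAP/TAZ was compared with siGFP with limma 3.58.1 in R 4.3.3 (Benjamini-Hochberg over all genes, threshold 0.05), checked on simulated data of smaller spread than the arrays, and with exact permutation of single values. The shRNA arm had no test. Alternatives were other scalings, a subtracted constant, a mean over probe sets, a filter on dim genes, other priors and weights, a replicate block and leaving out arrays. Precision is limited by the number of arrays.

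The members and the other gene lists were chosen with earlier results of these data known. All members are named, with up to 4 genes of each other list, those with the highest mean over the 8 arrays, the targets, Lyz2, and the 3 genes most like each member, predicted genes, odorant and pheromone receptors and segments of antigen receptors left out. Chac1 and Slc7a11 fall outside this rule. Promoter sequences are from RefSeq (GRCm38.p6), where 5 of the 6 members had an entry.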

Additional observations from a re-analysis of the deposited data

Results flagged for a closer look

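Among the genes named, 5 differed one way in all 3 siRNA comparisons and the other way in the shRNA comparison. The share of all genes with this pattern was not counted, so the 5 are listed without a background. The difference between the arms was not tested, and the shRNA arm is 1 array per group. On the log2 scale, Lyz2 stood at 0.11 with shRNA plasmids and at -0.17, -1.12 and -0.72 in the siRNA comparisons. Erbb3 stood at 0.36, against -0.88, -0.53 and -0.41, and Anpep at 0.36, against -0.73, -0.14 and -0.31. The B cell genes Cd22 and Cd79b stood at -1.32 and -1.16 in the shRNA comparison, against 0.09, 3.77 and 1.95 for Cd22 and 0.15, 3.70 and 1.13 for Cd79b. None of the 6 Paneth cell genes split in this way. Groups of 3 arrays or fewer were not searched for single outlying arrays.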

How the results depend on the processing

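No Paneth cell gene passed the test under any alternative run (limma adjusted p from 0.127 to 1.00). Of the recomputed values, 166 stayed the same by the rule for their kind, 25 moved and 9 turned sign. For siRNA differences of single genes the rule was the same direction and side of the threshold. As no Paneth cell gene passed in any run, this came down to direction alone. Pla2g2a counted as the same in all 16 alternatives, although its difference ran from -2.43 to -0.03. Gene counts had to stay within a set ratio of the main count. The median of the 6 had to stay within the SD of its 3 siRNA comparison medians, and shRNA differences within the gene's residual SD. The cause of the changes was not tested. Leaving out 1 array, the siRNA log2 difference ran from -1.31 to -0.38 for Lyz1, -1.77 to -0.27 for Ang4, -2.43 to -0.05 for Pla2g2a, -1.19 to -0.34 for Habp2, -0.76 to 0.47 for Mmp7 and -0.10 to 0.60 for Nupr1, and the median of the 6 from -1.25 to -0.16. Mmp7 turned positive without siYAP/TAZ 2, siYAP/TAZ 3, siGFP 1 or siGFP 2, and Nupr1 negative without siYAP/TAZ 1. Over the same omissions limma called 0 to 11 genes higher and 0 to 2 lower, the calls arising without siYAP/TAZ 1, and 613 to 2227 genes higher and 984 to 2385 lower had groups that did not overlap, with fewer arrays to overlap. In the full set 319 and 597 did not overlap. Without the arrays numbered 2 of both groups (an alternative added once the data had been seen) the values were 0.32 for Ang4, 0.33 for Mmp7, 0.0804 for the median of the 6 and 1205 and 2295 genes not overlapping. Without both numbered 1, likewise added later, they were -0.0819 for Nupr1, 45 genes called higher, 16 lower and 2717 and 3002 not overlapping. With array weights the median of the 6 was -1.52, and the single genes lay between -2.07 for Ang4 and 0.07 for Nupr1. Without normalization 197 genes were higher without overlap and 61.5% of genes were lower in the mean, against 53.6% after quantile normalization. Without dim genes 174 and 366 did not overlap. The replicate block called 1 gene higher and 0 lower, with an adjusted p of 1.00 for each of the 6 and an unadjusted p of 0.0226 for Habp2 and 0.0419 for Lyz1 (limma). The share of all genes with an unadjusted p below 0.05 in that fit was not counted, so these 2 values have no background. The main fit did not pair the arrays by number, although the labels name each control for 1 knockdown array. Same-numbered arrays had correlations of deviations from their group means of 0.75, -0.13 and 0.57 across genes. The array siYAP/TAZ 2 correlated best with siGFP 3. With 3 arrays per group these correlations cannot show whether the arrays were paired. With the block the SE was smaller for each of the 6, at 0.27 for Habp2 and 0.33 for Lyz1, against 0.52 and 0.56 without it.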

Other observations

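Alpha-defensins are the main peptides of Paneth granules, but 6 probe sets of this family name several genes each, so no single gene is given for them. On the log2 scale their median differences were -0.28, -1.60 and 0.28 with siRNAs and 0.15 with shRNA plasmids. In siRNA comparison 2 the 6 probe sets ran from -1.84 to -1.21, and in the shRNA comparison from 0.12 to 0.52. The shRNA values lie beside -1.56 for Ang4, -1.01 for Pla2g2a and -0.64 for Lyz1. No test was made of the difference between them.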
